A study of Saccharomyces cerevisiae with 6 samples.

Results

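Mitochondrial metabolite carriers are proteins of the inner mitochondrial membrane that exchange small molecules between the mitochondrial matrix and the cytosol. They set which organic acids, amino acids and nucleotides can pass between the tricarboxylic acid cycle and the pathways outside it. Sfc1, also known as Acr1, brings succinate into the matrix in exchange for fumarate, and yeast needs it to grow on ethanol or acetate, when the glyoxylate cycle makes succinate in the cytosol. Transcription of *SFC1* is known to be low while glucose is plentiful.

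The expression of *SFC1* and of 9 further carrier genes (*ODC1*, *ODC2*, *DIC1*, *CTP1*, *OAC1*, *AGC1*, *YMC1*, *YMC2* and *GGC1*) was examined in 2 strains of wine yeast at 12 °C. The 10 genes are 10 of the 5449 *S. cerevisiae* genes measured, and each was read by a single probe set. *SFC1* was chosen because it was much lower in the evolved strain on these arrays, so its values describe the difference and no test is given for it. The other 9 were chosen by function, but with earlier results of these data known, so their choice was not blind to the values. P5 is a commercial wine strain of *Saccharomyces cerevisiae*, and P5-EM, an evolved isolate of it, was taken from a mixed culture of wine strains that had been treated with ethyl methanesulfonate, a chemical mutagen, and then grown for 200 generations in synthetic grape must at low temperature. P5-EM thus differs from P5 both in the mutagen treatment and in the selection, and their parts in a difference cannot be told apart. Each strain was sampled from 3 independent cultures in the exponential phase of fermentation at 12 °C, with the same must for both strains. The paper reports that at this temperature P5-EM fermented the must faster than P5, which left sugar unconsumed. It also reports that the low inositol of the must limited P5. Only 1 time was sampled, so what a difference in how far the strains had progressed by then contributes was not tested.

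Each level is the log2 of a normalised hybridisation signal on an array, a scale on which 1 unit is a 2-fold difference. The number of arrays, 6, limits the precision. The array also carries 1746 probe sets for the fission yeast *S. pombe*, and the 95th percentile of their signals, between 2.28 and 2.59 on the 6 arrays, was taken as background. All 10 carrier genes were above it on all 6 arrays, and *SFC1* on P5-EM replicate 1 had the lowest of their values, 4.67. Pearson's r over genes was 0.992 to 0.996 among the P5 arrays and 0.990 for P5-EM replicates 2 and 3. P5-EM replicate 1 stood apart, with r of 0.967 and 0.953 to the other P5-EM arrays, and values without it are given where a result rests on it. The median probe set had an SD of 0.12 in P5 and 0.22 in P5-EM. Of 6 abundant enzymes of glycolysis and alcoholic fermentation (*TDH3*, *PGK1*, *ENO2*, *CDC19*, *PDC1* and *ADH1*), none passed the test between strains, with log2 differences from -0.04 to 0.20. Of all probe sets, 13.9% passed in either direction.

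*SFC1* had log2 levels of 8.93, 8.75 and 9.02 in the 3 cultures of P5 and of 4.67, 5.54 and 5.94 in those of P5-EM. The strains did not overlap, and the highest P5-EM culture lay 2.81 below the lowest P5 culture. The mean went from 8.90 ± 0.14 in P5 to 5.38 ± 0.65 in P5-EM (SD, n = 3), a log2 difference of -3.52 or 11.4-fold. On the linear scale the signal was 488, 429 and 520 in P5 and 25.4, 46.7 and 61.3 in P5-EM. Of the 5498 probe sets, that of *SFC1* had the lowest log2 difference, rank 1.

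What remained of the *SFC1* signal in P5-EM was still above background, by 2.08, 3.14 and 3.62 on the log2 scale on replicates 1, 2 and 3. The 3 P5-EM cultures differed more than the 3 P5 cultures did. The SD of *SFC1* in P5 was at or above that of 59.4% of all probe sets, whereas its SD in P5-EM was at or above that of 90.4%. The lowest level was on P5-EM replicate 1, the array that stood apart, and without that array the log2 difference was -3.16, or 8.93-fold. It lay between -3.79 and -3.16 when each array was left out in turn.

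**Figure D1:**
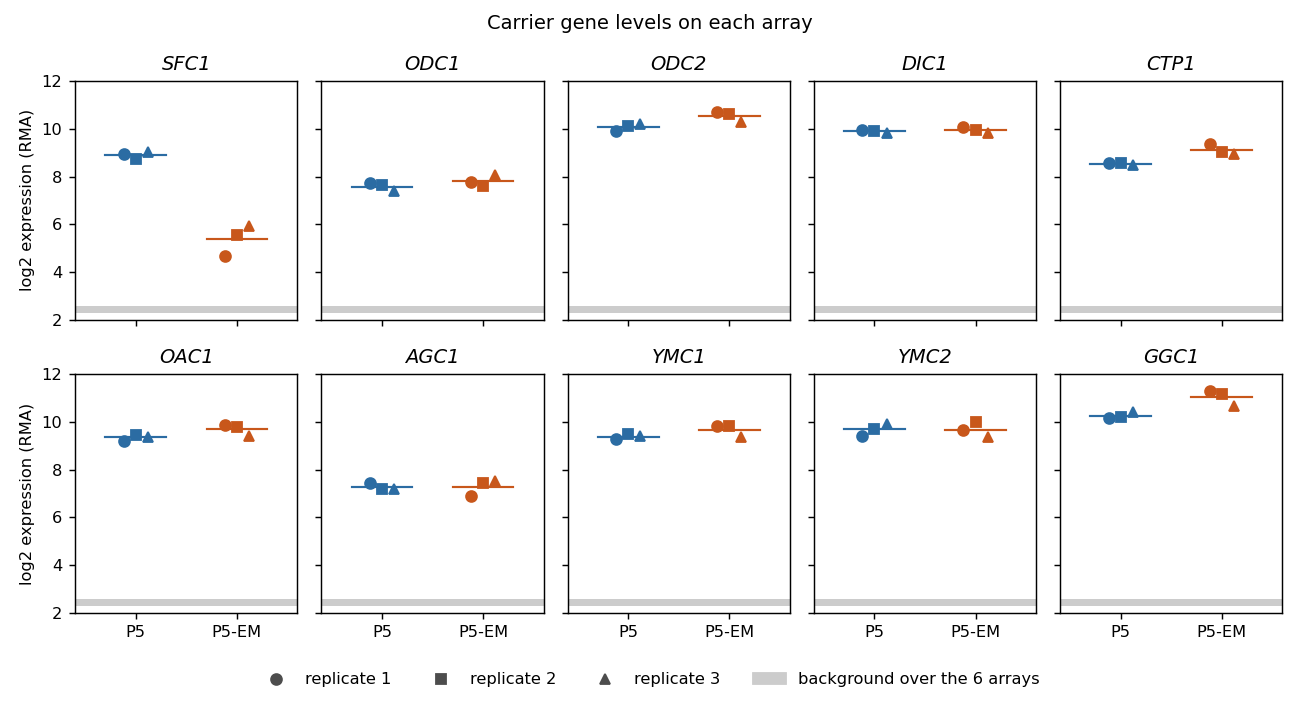
Log2 expression of the 10 carrier genes (vertical axis) on each array of P5 (blue) and P5-EM (orange), with a symbol for each replicate and a line at the mean of 3. The grey band is the range of the background over the 6 arrays. *SFC1* went from 8.75 to 9.02 in P5 down to 4.67 to 5.94 in P5-EM, while no other carrier fell below 6.89 on any array.

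None of the 9 other carriers was lower in P5-EM by the test, and 2 were higher: *CTP1*, for the citrate carrier, and *GGC1*, for the carrier that brings GTP into mitochondria in exchange for GDP. The test was limma's moderated test across all 5498 probe sets with Benjamini-Hochberg adjustment, and a gene passed at an adjusted p of 0.05 or less. The 2 of 9 genes that passed stand beside 6.09% of all probe sets that passed toward higher in P5-EM, and 0 of the 9 beside 7.78% that passed toward lower. None of the 9 passed and differed at least 2-fold, as 3.93% of all probe sets did (1.33% higher and 2.6% lower). The log2 differences of the 9 lay between -0.01 and 0.77, with 8 above 0 and a median of 0.28, against a median of -0.04 over all probe sets. In 3 of the 9 (*ODC2*, *CTP1* and *GGC1*) every P5-EM culture was above every P5 culture, which was so for 21.1% of all probe sets. Separate strains in either direction were found for 45.7%.

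*CTP1* had log2 levels of 8.57, 8.55 and 8.48 in P5 and of 9.37, 9.04 and 8.93 in P5-EM. All 3 P5-EM cultures were higher than all 3 P5 cultures, by at least 0.36. The log2 difference was 0.58 (SE 0.14, limma adjusted p = 0.0429), and it was 0.45 without P5-EM replicate 1 (adjusted p = 0.0187). The P5 cultures of *CTP1* had the lowest SD of the 10 genes, 0.05, against 0.23 in P5-EM.

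*GGC1* had log2 levels of 10.16, 10.21 and 10.43 in P5 and of 11.28, 11.15 and 10.67 in P5-EM. The strains were again separate, by 0.24 between the nearest cultures. Its log2 difference of 0.77 (SE 0.18, adjusted p = 0.0414, limma) or 1.70-fold was the highest of the 9, and it was 0.64 without P5-EM replicate 1 (adjusted p = 0.0243). The calls of *CTP1* and *GGC1* ended without any one of the P5 arrays or without P5-EM replicate 2 (adjusted p from 0.104 to 0.166). They also ended with the replicate number as a block in the fit (adjusted p = 0.0867 and 0.0967). With P5 replicate 2 or 3 left out, no probe set on the array passed (1318 and 1222 at an unadjusted p under 0.05), so the loss there was not particular to these genes.

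The oxodicarboxylate carriers Odc1 and Odc2 are close relatives that move 2-oxoglutarate and 2-oxoadipate, intermediates of glutamate and lysine synthesis, out of mitochondria. *ODC2* had log2 levels of 9.90, 10.11 and 10.19 in P5 and of 10.71, 10.63 and 10.30 in P5-EM. The strains were separate by 0.10, and the log2 difference of 0.48 (95% interval 0.11 to 0.84) did not pass over all probe sets (adjusted p = 0.0817, limma). *ODC1* had levels of 7.71, 7.62 and 7.39 in P5 and of 7.76, 7.62 and 8.07 in P5-EM, with overlap between the strains. Its log2 difference was 0.24 (-0.14 to 0.61, adjusted p = 0.323). The change of *ODC2* exceeded that of *ODC1* by 0.24, which an exact permutation test of the 6 per-array log ratios did not separate from 0 (two-sided p = 0.5, adjusted over the 2 pairs of related carriers p = 0.5). With 3 cultures against 3, 0.1 is the smallest p this test can give. The paper reports that P5-EM differs from its parent by a point mutation in the regulatory region upstream of *ODC2*. What that mutation contributes to the level of *ODC2* was not tested.

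Ymc1 and Ymc2 form a second related pair, whose substrates are less well settled. *YMC1* had log2 levels of 9.26, 9.50 and 9.39 in P5 and of 9.81, 9.81 and 9.37 in P5-EM. On P5-EM replicate 3 it therefore lay within the range of P5, and its log2 difference was 0.28 (-0.09 to 0.66, adjusted p = 0.245, limma). *YMC2* had 9.41, 9.72 and 9.93 in P5 and 9.67, 9.98 and 9.37 in P5-EM, a log2 difference of -0.01 (-0.49 to 0.47, adjusted p = 0.980). It varied the most of the 10 genes among the P5 cultures, with an SD of 0.26. The change of *YMC2* minus that of *YMC1* was -0.29 on the log2 scale (exact permutation test, two-sided p = 0.2, adjusted p = 0.4).

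The remaining 3 carriers move dicarboxylates and amino acids. Oac1 transports oxaloacetate and sulfate and takes part in leucine synthesis by moving isopropylmalate. *OAC1* had log2 levels of 9.20, 9.46 and 9.38 in P5 and of 9.87, 9.79 and 9.40 in P5-EM, with a log2 difference of 0.34 (-0.05 to 0.72, adjusted p = 0.188, limma). Dic1 exchanges malate or succinate for phosphate, and it shares the substrate succinate with Sfc1. *DIC1* had 9.93, 9.93 and 9.82 in P5 and 10.08, 9.96 and 9.83 in P5-EM, the smallest spread of the 9 within P5-EM (SD 0.12). Its log2 difference was 0.06 (-0.21 to 0.34, adjusted p = 0.729). Among the 9 carriers the lowest interval bound was the -0.49 of *YMC2*. Agc1 exchanges aspartate for glutamate and serves the malate-aspartate shuttle, which carries reducing equivalents. *AGC1* had 7.42, 7.19 and 7.20 in P5 and 6.89, 7.46 and 7.52 in P5-EM, a log2 difference of 0.02 (-0.44 to 0.48, adjusted p = 0.947). P5-EM replicate 1 was here below all other arrays, and without it the log2 difference of *AGC1* was 0.22 (adjusted p = 0.200).

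**Figure D2:**
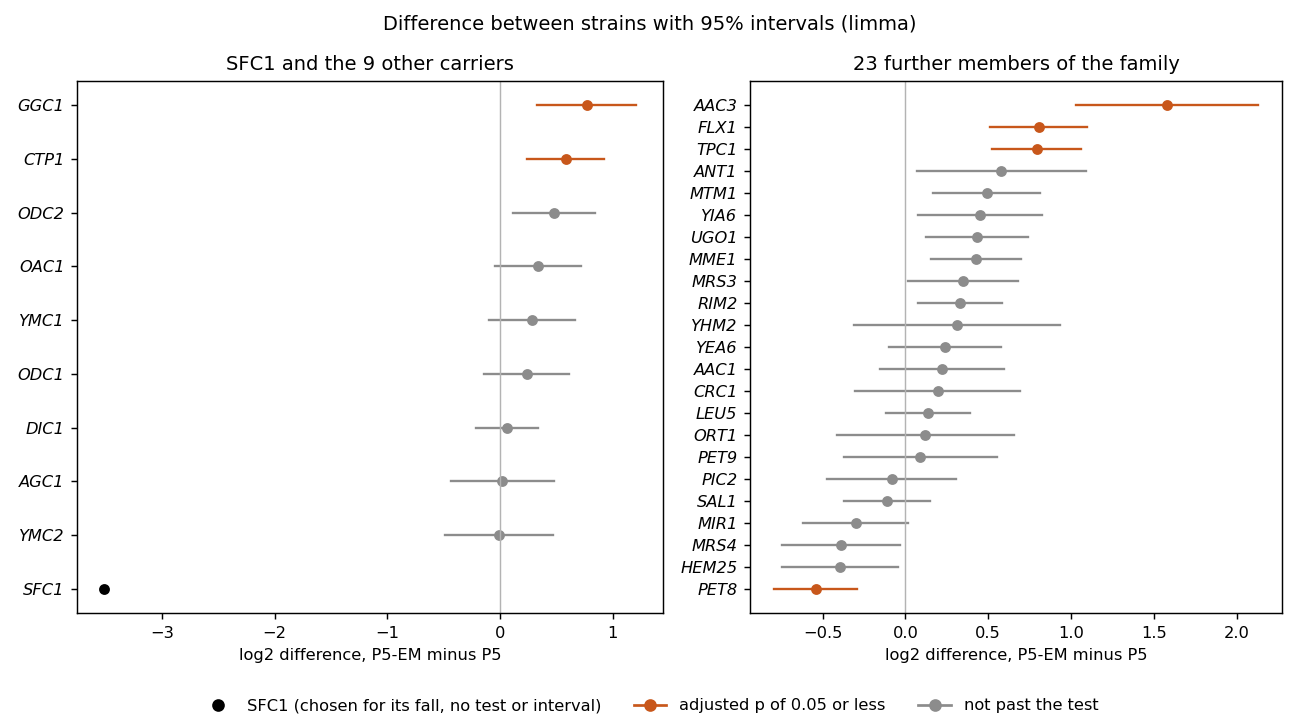
Log2 difference of P5-EM minus P5 (horizontal axis) for *SFC1* and the 9 other carriers (left) and for 23 further genes of the carrier family (right), with limma's 95% interval for all but *SFC1*, which was chosen for its fall. *SFC1* lies at -3.52, the 9 others lie between -0.01 and 0.77, and the family between -0.54 and 1.58. The 2 panels have different horizontal scales.

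Set against the other carriers array by array, *SFC1* lay well below their range in each culture of P5-EM. Relative to its own P5 mean it was at -4.23, -3.36 and -2.96 on P5-EM replicates 1, 2 and 3, and the 9 carriers had a median of 0.43, 0.43 and 0.23 on the same arrays. The lowest of the 9 was *AGC1* at -0.38 on replicate 1, *ODC1* at 0.04 on replicate 2 and *YMC2* at -0.31 on replicate 3. On the P5 arrays *SFC1* lay between -0.15 and 0.12 and the 9 between -0.28 and 0.24. Only on P5 replicate 2, where the lowest of the 9 was *AGC1* at -0.08, was *SFC1* outside the range of the others. The gap between *SFC1* and the median of the 9 was thus -4.66, -3.79 and -3.19 in the P5-EM cultures. Taken over means, the log2 difference of *SFC1* minus the median of the 9 was -3.80, or 13.9-fold, and it ran from -3.51 against *YMC2* to -4.29 against *GGC1*. Without P5-EM replicate 1 it was -3.40, or 10.6-fold. As *SFC1* was chosen for its fall, these gaps are descriptions.

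Within P5-EM the cultures did not order the carriers in the same way. P5-EM replicate 3 had the lowest value of the 3 for 7 of the 9 carriers, and replicate 1 the highest for 5 of them, whereas *SFC1* and *AGC1* were lowest on replicate 1. All 10 genes had a higher SD in P5-EM than in P5, as did 74.1% of all probe sets. The SDs of the 9 carriers lay between 0.12 and 0.35 in P5-EM, all under the 0.65 of *SFC1*.

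Of the further genes of the carrier family, 25 were listed and 23 were measured. Of the 23, 3 were higher in P5-EM, 1 was lower and 19 did not pass, beside 6.09% higher and 7.78% lower over all probe sets, and their median log2 difference was 0.24. *AAC3*, the ADP/ATP carrier made when oxygen is short, had log2 levels of 6.46, 6.39 and 6.35 in P5 and of 8.45, 7.99 and 7.51 in P5-EM. All P5-EM cultures were above all P5 cultures, and the log2 difference of 1.58 (SE 0.23, adjusted p = 0.0135, limma) was the only one of the family of at least 2-fold. *PET9*, the main ADP/ATP carrier under aerobic growth, and *AAC1*, a minor one, differed by 0.09 and 0.22 on the log2 scale, short of the threshold (adjusted p = 0.764 and 0.345). *TPC1*, for the carrier of thiamine pyrophosphate, a cofactor of 2-oxo acid dehydrogenases, and *FLX1*, for the carrier of the flavin cofactor FAD, rose by 0.79 (SE 0.11) and 0.80 (SE 0.12), with adjusted p of 0.0129 and 0.0150. *PET8*, for the carrier of S-adenosylmethionine, the methyl donor, fell by 0.54 on the log2 scale (SE 0.10, adjusted p = 0.0247). It was at 10.34, 10.49 and 10.42 in P5 and at 9.85, 9.87 and 9.90 in P5-EM. Without P5-EM replicate 1, 8 of the 23 passed toward higher and 1 toward lower, but the calls over the whole array rose as well, to 12.2% higher and 14.4% lower. The calls of *AAC3*, *TPC1*, *FLX1* and *PET8* ended without any one P5 array or P5-EM replicate 2 (adjusted p from 0.0536 to 0.119).

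The strains were separate in 15 of the 23 family members, 10 higher and 5 lower in P5-EM, beside 21.1% and 24.6% of all probe sets. The 19 that did not pass ranged widely in role. The phosphate carrier gene *MIR1* and the iron carrier gene *MRS4* had log2 differences of -0.30 and -0.39, with P5-EM below P5 in every culture (adjusted p = 0.160 and 0.120), as did *HEM25* and *SAL1* with -0.40 and -0.11 (adjusted p = 0.114 and 0.484). *MTM1*, *YIA6*, *UGO1*, *MME1*, *MRS3*, *RIM2* and *LEU5* had log2 differences of 0.49, 0.45, 0.43, 0.43, 0.35, 0.33 and 0.13, with P5-EM above P5 in every culture (adjusted p from 0.0541 to 0.399). Rim2 carries pyrimidine nucleotides, and Mme1 exports magnesium. The mitochondrial pyruvate carrier belongs to another protein family, and its genes *MPC1*, *MPC2* and *MPC3* had log2 differences of -0.05, 0.12 and 0.21, none past the test. *MPC3* ran from 8.48 to 9.61 in P5-EM and from 8.71 to 8.88 in P5, so that its P5-EM cultures lay on both sides of the parent.

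The enzymes on the matrix side of Sfc1 did not share its fall. Succinate dehydrogenase oxidises succinate to fumarate, and its genes *SDH1*, *SDH2*, *SDH3* and *SDH4* had log2 differences of 0.21, 0.41, 0.41 and 0.09 (adjusted p from 0.0613 to 0.652, limma). *SDH2* was at 10.49, 10.58 and 10.64 in P5 and at 10.85, 10.95 and 11.13 in P5-EM. *FUM1*, for the fumarase that takes up fumarate, had a log2 difference of 0.19 (adjusted p = 0.421). Of 16 measured genes of the tricarboxylic acid cycle, 1 was higher, 0 lower and 15 did not pass, with a median log2 difference of 0.11. This share is close to the 6.09% of all probe sets that were higher, and the count was 2 without P5-EM replicate 1 and 3 with an intensity trend in the fit. The 1 that rose was *ACO1*, for aconitase, from 10.77, 10.84 and 10.62 in P5 to 11.42, 11.51 and 11.65 in P5-EM (log2 difference 0.79, SE 0.12, adjusted p = 0.0150). Its call ended without any one P5 array or P5-EM replicate 2 (0.0584 to 0.0921). The mitochondrial malate dehydrogenase gene *MDH1* was at 7.77 on P5-EM replicate 1 and at 10.02 and 10.27 on the others, against 10.07 to 10.53 in P5, and its log2 difference of -0.92 did not pass (adjusted p = 0.331). Without that array it was -0.13 (adjusted p = 0.587).

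On the cytosolic side, succinate is made during growth on acetate or ethanol. Of 12 measured genes of the glyoxylate cycle, gluconeogenesis and the entry of small carbon compounds, 3 were lower, 0 were higher and 9 did not pass. Over all probe sets 7.78% were lower and 6.09% higher. The count of lower genes was 5 when P5-EM replicate 3 was left out. It was 1 when P5 replicate 1 was left out, 1 with P5-EM replicate 2 left out, and 0 with either of the other P5 arrays left out. The median of the 12 log2 differences was -0.32. The lactate and pyruvate permease gene *JEN1* was at 9.16, 9.15 and 9.32 in P5 and at 8.11, 7.82 and 7.66 in P5-EM, and it fell by 1.35 (log2, SE 0.15, adjusted p = 0.00961, limma). The acetyl-CoA synthetase gene *ACS1* was at 9.48, 9.79 and 9.62 in P5 and at 8.28, 8.40 and 8.83 in P5-EM, a fall of 1.12 (SE 0.18, adjusted p = 0.0159). *PCK1*, for the first committed step of gluconeogenesis, fell by 0.54 (SE 0.11, adjusted p = 0.0288). In P5-EM, *SFC1* and *ACS1* had their lowest level on replicate 1, while *JEN1* had its lowest on replicate 3. These calls ended without P5 replicate 2 or 3, and those of *ACS1* and *PCK1* also without P5 replicate 1 or P5-EM replicate 2 (adjusted p from 0.0536 to 0.121). That of *PCK1* ended after quantile normalization (0.0668) as well.

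The glyoxylate cycle enzymes themselves did not pass. *ICL1*, for isocitrate lyase, which releases succinate, was at 8.54, 8.42 and 8.27 in P5 and at 7.96, 8.13 and 8.17 in P5-EM, a log2 difference of -0.32 (95% interval -0.62 to -0.03) that did not pass over all probe sets (adjusted p = 0.123, limma). *MLS1*, for malate synthase, had -0.20 (adjusted p = 0.428). *MDH2*, for the cytosolic malate dehydrogenase of gluconeogenesis, and *IDP2*, for the cytosolic isocitrate dehydrogenase, had -0.68 and -0.40 with every P5-EM culture below every P5 culture (adjusted p = 0.0684 and 0.0919). Both passed without P5-EM replicate 3 (-0.86 and -0.51, adjusted p = 0.0244 and 0.0418). In that fit 9.88% of all probe sets were lower. Neither passed without P5-EM replicate 1 (adjusted p = 0.0589 and 0.0905). *FBP1*, for fructose bisphosphatase, had 0.03 (adjusted p = 0.896). *PYC1* and *PYC2* had 0.22 and 0.38, with every P5-EM culture above every P5 culture (adjusted p = 0.196 and 0.0632). With *FBP1* they made up the 3 of the 12 above 0. Over all probe sets, 24.6% had every P5-EM culture below every P5 culture and 21.1% had every one above. Without P5-EM replicate 1, *PYC2* passed toward higher at 0.35 (adjusted p = 0.0486), as 12.2% of all probe sets did. The count of higher genes was also 1 with an intensity trend in the fit. The lowest log2 difference of the 12 was the -1.35 of *JEN1*, beside -3.52 for *SFC1*.

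Among 14 genes that regulate the use of carbon sources, 0 were higher, 0 lower and 14 did not pass the adjusted test (limma). Over all probe sets 6.09% were higher and 7.78% lower. Of the 14 log2 differences 7 were above 0, and that of *HXK2*, 0.78, was the highest (adjusted p = 0.148). *HXK2* passed without P5-EM replicate 3 (1.14, adjusted p = 0.0230) but not without P5-EM replicate 1 (0.47, adjusted p = 0.175). *RDS2*, at 0.38, passed without P5-EM replicate 1 (0.42, adjusted p = 0.0383). In the fits without P5-EM replicate 3 and without P5-EM replicate 1, 8.42% and 12.2% of all probe sets were higher. *CAT8*, for an activator of gluconeogenic genes that also acts on *SFC1*, was at 5.39, 5.55 and 5.21 in P5 and at 6.13, 5.56 and 6.12 in P5-EM. Its log2 difference was 0.55 (SE 0.19, adjusted p = 0.0972), which did not pass, and the nearest cultures of the strains were 0.008 apart. The activity of Cat8 was not measured. *SIP4*, for a related activator, had -0.14, *ADR1* 0.16, and the kinase gene *SNF1* -0.05 (adjusted p from 0.509 to 0.756). *HAP4*, for the activating subunit of the Hap complex that controls respiratory genes, spread from 6.64 on P5-EM replicate 1 to 7.81 and 8.61 on replicates 2 and 3, against 7.64 to 7.80 in P5.

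For lysine synthesis, which draws on the 2-oxoadipate that Odc1 and Odc2 export, 2 of 9 genes were higher, 0 lower and 7 did not pass, beside 6.09% of all probe sets that were higher, and all 9 log2 differences were above 0 (median 0.40). The count of higher genes was 4 without P5-EM replicate 1 or without P5-EM replicate 3, when 12.2% and 8.42% of all probe sets were higher. *LYS12* and *LYS9*, for homoisocitrate dehydrogenase and saccharopine reductase, rose by 0.75 (SE 0.14, adjusted p = 0.0210) and 0.67 (SE 0.16, adjusted p = 0.0411, limma). *LYS9* was at 10.97, 10.62 and 10.54 in P5 and at 11.55, 11.36 and 11.21 in P5-EM. Both calls ended without any one P5 array or P5-EM replicate 2 (0.0618 to 0.163).

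For branched-chain amino acid synthesis, which Oac1 serves, none of 12 genes passed, beside 6.09% of all probe sets that were higher, and all 12 log2 differences were above 0, with a median of 0.22. The median over all probe sets was -0.04. Without P5-EM replicate 1 or 3, 2 and 3 of the 12 passed toward higher, but calls over the whole array rose as well, to 12.2% and 8.42% higher. The highest was *LEU9*, for a minor isopropylmalate synthase, at 8.71, 8.93 and 9.13 in P5 and at 10.59, 10.09 and 9.29 in P5-EM (log2 difference 1.06, SE 0.32, adjusted p = 0.0719, limma). The log2 difference of *LEU9* was 0.76 without P5-EM replicate 1 (adjusted p = 0.0440) and 1.41 without P5-EM replicate 3 (adjusted p = 0.0151). *LEU3*, for the activator of this pathway, had 0.13 (adjusted p = 0.590). Among 9 genes of glutamate and aspartate metabolism, 1 was higher, 1 lower and 7 did not pass, beside 6.09% and 7.78% of all probe sets. *GLT1*, for glutamate synthase, was higher by 0.81 (SE 0.16, adjusted p = 0.0260). The proline oxidase gene *PUT1* was lower, by a log2 difference of -2.69 (SE 0.38, adjusted p = 0.0129). The call of *GLT1* ended without any one P5 array or P5-EM replicate 2 (0.0805 to 0.104), and that of *PUT1* without the same arrays (0.0566 to 0.0719). Aspartate aminotransferase acts beside Agc1 in the malate-aspartate shuttle, and its mitochondrial and cytosolic genes *AAT1* and *AAT2* had log2 differences of 0.68 and 0.18 (adjusted p = 0.0800 and 0.483).

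**Figure D3:**
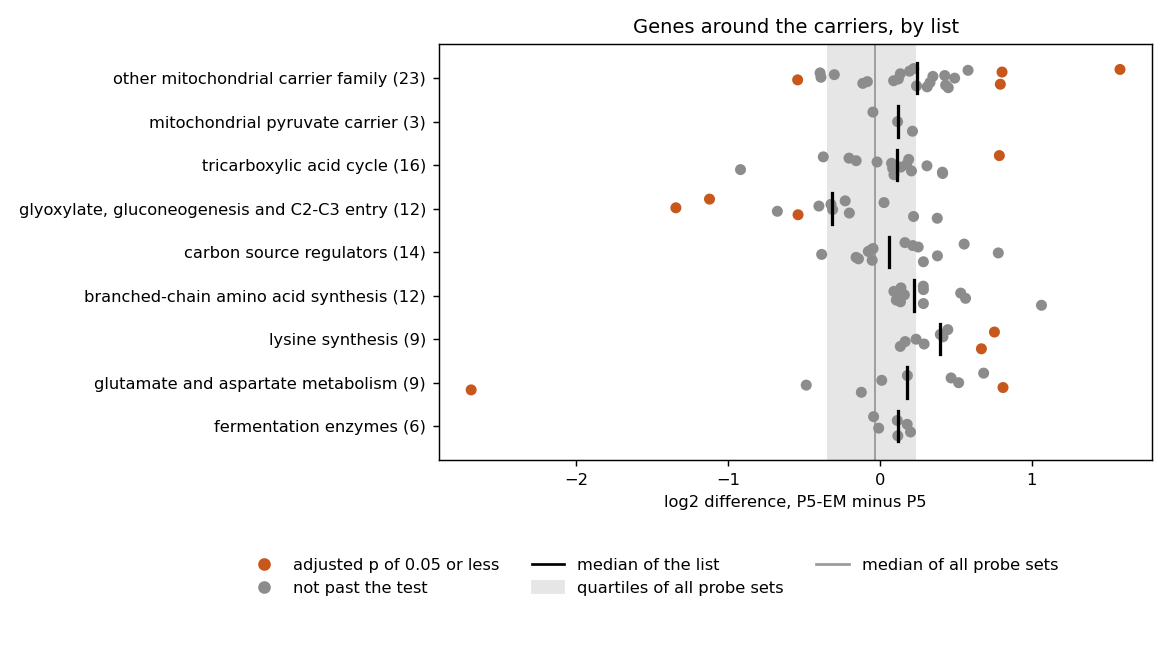
Log2 difference of P5-EM minus P5 (horizontal axis) for each measured gene of 9 lists around the carriers, with the number measured in parentheses, genes past the test in orange and a black line at each list's median. The grey band runs from the lower to the upper quartile of all probe sets, -0.35 to 0.24, with a grey line at their median. The glyoxylate and gluconeogenesis list has the lowest median, -0.32, and the lysine list the highest, 0.40.

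The genes whose pattern over the 6 arrays was most like that of *SFC1* were *GIT1*, *PUT1*, *ZEO1*, *SPS100* and *CHA1*. Likeness was the mean absolute difference, over 6 arrays, between the deviations of a gene and of *SFC1* from their own means in P5, and it was 0.40, 0.54, 0.68, 0.68 and 0.70 on the log2 scale. This measure includes the size of the fall in P5-EM, for which *SFC1* was chosen, so genes with a large fall rank near it. The log2 differences of the 5 were -3.20, -2.69, -2.42, -2.37 and -2.31. The 5 genes and the ranks are therefore descriptions. *GIT1*, the glycerophosphoinositol permease gene, was at 9.41, 8.40 and 8.13 in P5 and at 4.81, 5.57 and 5.95 in P5-EM. Its P5-EM cultures thus stood in the same order as those of *SFC1*, but its P5 cultures were less even, with an SD of 0.67 against 0.14. *PUT1* was at 9.36, 9.02 and 8.81 in P5 and at 5.63, 6.30 and 7.18 in P5-EM. *ZEO1*, *SPS100* and *PUT1* also had their lowest level on P5-EM replicate 1, whereas *CHA1*, the serine and threonine deaminase gene, was at 5.93, 5.43 and 5.78 in P5-EM. Of the other 9 carriers *AGC1* came closest, at 1.83 and rank 2931 among all genes by likeness, and *GGC1* was the farthest, at rank 5121.

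The genes beside *SFC1* on the chromosome did not show a difference of its size. Chosen after the values of *SFC1* were seen, the 3 measured protein-coding genes on each side of it were *FIP1*, *IME1* and *RPL43B* on one side and *YJR096W*, *JJJ3* and *YJR098C* on the other. Their log2 differences were 0.27, -0.22, 1.11, -0.16, -0.93 and -0.11. Of these 6, *JJJ3* was lower (SE 0.18, adjusted p = 0.0264, limma) and 5 did not pass, beside 7.78% of all probe sets lower. *RPL43B*, for a ribosomal protein, had the highest, with an SE of 0.32 (adjusted p = 0.0615), and shared hybridisation with its near-identical copy *RPL43A* was not tested. For the other 9 carriers, none of the 18 nearest measured neighbours passed (lowest adjusted p = 0.0613), with log2 differences from -0.95 to 0.39. Over all probe sets 13.9% passed in either direction.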

How the data were processed

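RNA from 3 cultures of P5 and 3 of P5-EM was amplified from 25 ng over 17 cycles and hybridised to Affymetrix Yeast Genome arrays. The authors made the deposited log2 values with GCOS, RMA and Partek, which corrected background, normalised between arrays and summarised probes, without pooling replicates. RMA brings the arrays to a common distribution, so a change shared by most genes cannot be seen. Of 10928 probe sets, 5498 had exactly 1 *S. cerevisiae* gene and entered the test, 3683 are not in the annotation and 1 has several genes. Symbols were matched through RefSeq's gene table, and 12 were updated. Where a gene had more than 1 probe set, that with the highest mean stood for it. Related genes such as *ODC1* and *ODC2* could share hybridisation, which was not tested.

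P5-EM minus P5 was fitted with limma 3.58.1 (lmFit, eBayes) in R 4.3.3. The model held only the strain, and p-values were adjusted by Benjamini-Hochberg across the 5498 probe sets. Intervals are 95% limma intervals. The methods' t-test, other normalizations, a background filter, an intensity trend, array weights, a replicate block and each array left out were tried. The members and lists were chosen with earlier results of these data known. Named were all members, up to 4 genes of a list with the lowest adjusted p among those that passed, and the 5 genes nearest to *SFC1*. Further list genes were named after their values were seen, for their role or their values. No promoter or protein sequence was used here.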

Additional observations from a re-analysis of the deposited data

How the results depend on the processing

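*SFC1* stayed lower in P5-EM under all alternatives run. Its log2 difference ran from -3.79 to -3.16, and its gap to the median of the other carriers from -4.22 to -3.40, as each array was left out, and the other settings lay within these ranges. For *CTP1* and *GGC1*, leaving out arrays gave log2 differences from 0.45 to 0.67 and 0.64 to 0.95, and with the replicate number as a block their calls ended at an unchanged 0.58 and 0.77 (adjusted p = 0.0867 and 0.0967). The replicate numbers are of independent cultures, and the labels do not state a pairing. Deviations of same-numbered arrays correlated at -0.03, -0.28 and -0.02, and those of differently numbered arrays at -0.11 to 0.24. With 3 arrays per strain, these correlations cannot decide whether same-numbered arrays shared a batch. The block also ended the calls of *TPC1*, *PET8*, *ACO1*, *PCK1*, *LYS12*, *LYS9* and *GLT1* (adjusted p from 0.0514 to 0.0846). Under it 0 of the 9 carriers passed toward higher, 83 probe sets passed higher and 125 lower, and in the 9 lists together, where 7 genes were higher and 5 lower, 2 were higher and 3 lower.

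Array weights, whose estimate did not converge, raised *ODC2* (0.51), *OAC1* (0.39), *AGC1* (0.23) and *YMC1* (0.38) past the test and turned *YMC2* to 0.20. With them 6 carriers, 1583 probe sets and 46 list genes were higher, and 1639 and 16 lower. The methods' t-test takes only probe sets at least 2-fold apart, so 0 of the 9 carriers could pass it, and 65 probe sets were higher and 125 lower (1 and 3 list genes). Quantile normalization and the intensity trend gave 11 and 12 higher list genes. Over all probe sets 335 were higher and 428 lower, a share of 43.9% higher. Quantile normalization left this share within 10 percentage points at any fold (494 and 494), but at 2-fold turned 73 higher and 143 lower into 116 and 123.

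Leaving out each array moved the count of carriers past the test toward higher between 0 and 3, that of probe sets between 0 and 669 higher and 0 and 793 lower, and that of list genes between 0 and 19 higher and 0 and 8 lower. *DIC1*, *AGC1* and *YMC2*, all near 0, changed sign there, with ranges of -0.00068 to 0.12, -0.10 to 0.22 and -0.16 to 0.14. *ODC2* ran from 0.39 to 0.60 and passed without P5-EM replicate 3 (adjusted p = 0.0381). The 16 other genes named by rule kept their direction in all comparisons with an alternative, of which 150 left their call as it was and 66 ended it.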
